A study of Mus musculus with 4 samples.

Results

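Hedgehog receptors and Gli factors were examined as 9 genes, chosen by name: Ptch1, Hhip, Boc, Gas1, Smo, Sufu, Gli1, Gli2 and Gli3. All 9 were found among the 24084 gene rows of the count table. RNA was sequenced from hair follicle stem cells sorted from the skin epidermis of C57BL/6 mice aged 7 to 10 weeks, 4 days after the back skin was depilated, which starts a new hair growth phase. The groups were 2 libraries from Foxp3-DTR mice (replicates C and D), labelled Treg depleted, and 2 from WT mice (replicates A and C), labelled Treg present. Mice of both groups received diphtheria toxin intraperitoneally at 15 ng/g. Foxp3-DTR mice carry the toxin's receptor in cells that express Foxp3, the regulatory T cells, and WT mice do not. The comparison asks how the stem cells' RNA differs when regulatory T cells are removed, and neither the sorting markers nor the number of animals behind a library is given in the sources used here.

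Hedgehog ligands are secreted proteins that bind Ptch1, a membrane protein that keeps the signal transducer Smo silent in their absence. When a ligand binds, Smo becomes active at the primary cilium, Sufu releases the Gli transcription factors, and Gli2 and Gli1 act mainly as activators while Gli3 acts mainly as a repressor. Ptch1, Hhip and Gli1 are themselves targets of the pathway in mice, so their RNA is commonly read as its output, whereas Boc and Gas1 are co-receptors whose RNA is lowered by the signal in mouse embryos. In skin, Sonic hedgehog from the growing follicle drives the growth phase, and Gli1 marks stem cells of the hair germ and bulge.

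Gene counts per library ranged from 13911765 to 15923154, and all 13 listed stem cell markers were detected. Krt15 stood at 7255 and 10597 CPM in Foxp3-DTR C and D, against 9884 and 11753 CPM in WT A and C. Cd34 stood at 1709 and 1625 CPM in Foxp3-DTR C and D, against 936 and 1216 CPM in WT A and C. Of the 13, 0 passed edgeR's test with adjustment over all genes. At an unadjusted p under 0.05, 2 were higher and 2 lower in Foxp3-DTR, against 6.76% and 7.89% of all tested genes. CPM are read counts relative to library size, after edgeR's TMM factors. No library had a Foxp3 read (0 counts, an upper limit of 0.185 to 0.213 CPM), so the loss of regulatory T cells cannot be read from these sorted cells. The groups differed in sex-linked RNA. Xist had 28 and 0 counts in Foxp3-DTR C and D, and 12226 and 40355 counts in WT A and C. The 4 Y-linked genes listed stood at 39.0 to 117 CPM in Foxp3-DTR libraries and had 0 counts in both WT libraries. Genotype is thus confounded with the sex of the mice, and these cannot be told apart here; the same holds for the title codes DEP3 (both Foxp3-DTR libraries) and DEP2 (both WT libraries). Suprabasal keratinocyte genes split the replicates within each group: the 6 listed genes summed to 1173 and 6800 CPM in Foxp3-DTR C and D, and to 8016 and 932 CPM in WT A and C.

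Per kilobase of exon, the co-receptor Gas1 (mm10 chromosome 13, 60174405 to 60177365, minus strand) had the highest level of the 9 genes in each of the 4 libraries, at 177 to 246 CPM per kb, above 99.1% of tested genes. Boc (chromosome 16, 44485049 to 44558897, minus strand) came second at 64.0 to 129 CPM per kb. Gli1 (chromosome 10, 127329882 to 127341974, minus strand) followed at 27.8 to 73.8, Smo (chromosome 6, 29735503 to 29761365, plus strand) at 24.0 to 36.8 and Gli2 (chromosome 1, 118834132 to 119053619, minus strand) at 14.4 to 29.3 CPM per kb. Gli3 (chromosome 13, 15463235 to 15730026, plus strand) spanned 7.08 to 18.1, Ptch1 (chromosome 13, 63508328 to 63573598, minus strand) 5.74 to 17.6 and Sufu (chromosome 19, 46396896 to 46488804, plus strand) 5.86 to 7.32 CPM per kb. Hhip (chromosome 8, 79965851 to 80058006, minus strand) was the lowest in every library at 0.621 to 3.08 CPM per kb. In this order Gas1 and Boc, and Sufu and Hhip, were separated by the ranges over libraries, and the ranges of the other 6 neighbouring pairs overlapped. The length used is that of all annotated exons together, which understates the level of genes with many alternative exons, such as Ptch1 with 14185 exon bases.

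**Figure D1:**
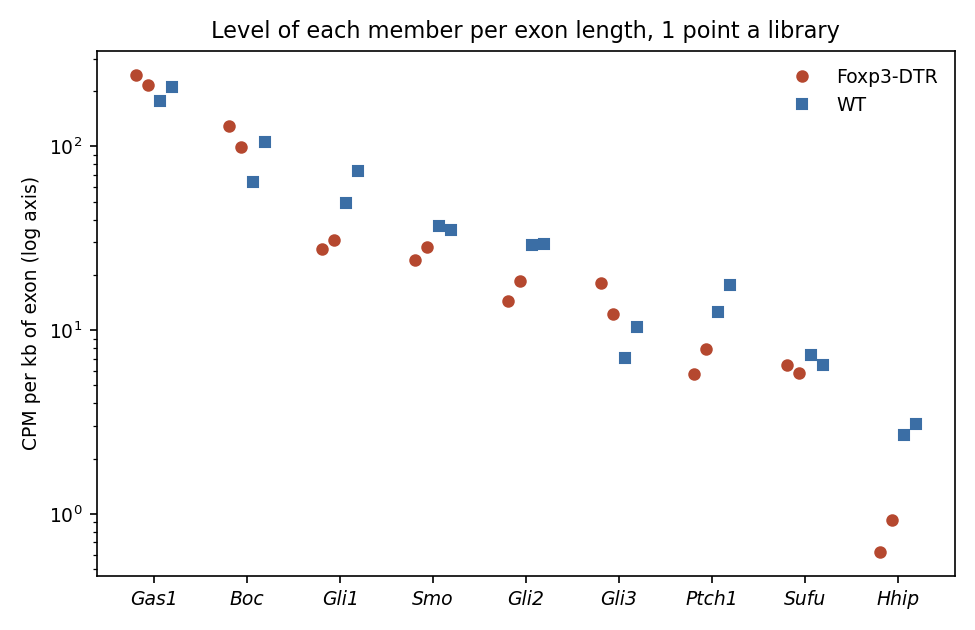
Level of each Hedgehog gene in CPM per kb of exon on a log axis, 1 point per library, with Foxp3-DTR as red circles and WT as blue squares. Gas1 lies at 177 to 246 and Hhip at 0.621 to 3.08, and Gli3 and Ptch1 change places between Foxp3-DTR and WT.

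RefSeq promoter windows were available for 7 of the 9 genes, all except Gli1 and Boc. Of the 7, the 4 with the smallest p in the comparison of the groups were taken, 3 with lower and 1 with higher levels in Foxp3-DTR. Gli1, left out for want of a window, had a smaller p than Gli2 and Gli3. The 250 bases before the start are shown for the 4 genes taken. They were chr13:63565736-63565985 (minus strand) for Ptch1, chr8:80058009-80058258 (minus strand) for Hhip, chr1:119053620-119053869 (minus strand) for Gli2 and chr13:15463473-15463722 (plus strand) for Gli3, in GRCm38.p6, the assembly of mm10. Each is printed 5′ to 3′ on the strand of its gene, and capitals mark every GC box, GGGCGG or its reverse CCGCCC.
Ptch1: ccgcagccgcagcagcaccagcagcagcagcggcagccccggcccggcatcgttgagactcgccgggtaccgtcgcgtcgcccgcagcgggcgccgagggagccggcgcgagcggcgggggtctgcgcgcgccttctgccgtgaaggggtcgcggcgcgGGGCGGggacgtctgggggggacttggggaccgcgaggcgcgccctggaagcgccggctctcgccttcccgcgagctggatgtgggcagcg
Hhip: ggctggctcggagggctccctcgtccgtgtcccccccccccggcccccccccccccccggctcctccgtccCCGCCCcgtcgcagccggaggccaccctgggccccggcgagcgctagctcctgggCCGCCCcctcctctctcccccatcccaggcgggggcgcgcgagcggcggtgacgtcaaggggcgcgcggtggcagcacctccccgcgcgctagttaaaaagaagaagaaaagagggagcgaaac
Gli2: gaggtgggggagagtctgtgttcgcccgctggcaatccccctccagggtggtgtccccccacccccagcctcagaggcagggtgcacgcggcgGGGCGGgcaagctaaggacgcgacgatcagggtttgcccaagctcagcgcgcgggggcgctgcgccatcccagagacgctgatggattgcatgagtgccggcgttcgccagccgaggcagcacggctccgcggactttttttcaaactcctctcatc
Gli3: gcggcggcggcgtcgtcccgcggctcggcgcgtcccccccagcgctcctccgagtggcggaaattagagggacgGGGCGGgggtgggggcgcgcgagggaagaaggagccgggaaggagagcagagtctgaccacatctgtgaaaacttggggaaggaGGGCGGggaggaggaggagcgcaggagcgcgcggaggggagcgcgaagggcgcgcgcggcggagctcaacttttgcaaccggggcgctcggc
The Gli consensus GACCACCCA, searched on both strands, was in 0 of the 7 windows, also when 1 mismatch was allowed. Over all 32851 windows of this length in the table, 0.225% held it exactly and 5.79% with at most 1 mismatch. Of the 7 windows, 6 held a GC box, as did 32.7% of all windows. These letters describe 250 bases only: Gli sites farther away were not looked at, and the Ptch1 and Gli3 windows belong to starts that lie inside the annotated genes, which begin farther upstream.

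In both Foxp3-DTR libraries the pathway's own targets Hhip, Ptch1 and Gli1, the activator Gli2 and the transducer Smo stood below both WT libraries, while the repressor Gli3 and the co-receptor Gas1 stood above them. None of these differences passed edgeR's test with adjustment over all genes, and those of Hhip, Ptch1, Gli1 and Gli2 passed in DESeq2. Among all tested genes the groups did not overlap for 23.7% with Foxp3-DTR lower and for 22.0% with Foxp3-DTR higher. The 2 of 9 that stood higher were thus near the share of all genes. Hhip, which binds and holds back Hedgehog ligands, stood at 5.64 and 8.43 CPM in Foxp3-DTR C and D, against 24.5 and 27.9 CPM in WT A and C. The groups were far apart relative to the spread within each, with a 3.73-fold lower level in Foxp3-DTR (log2 fold change -1.90 ± 0.32, SE). Its adjusted p of 0.0523 in edgeR's quasi-likelihood test, adjusted by Benjamini-Hochberg over 12920 genes, just missed the threshold of 0.05. Here as for every gene below, fewer cells with the RNA and less RNA per cell cannot be told apart.

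Ptch1, the ligand receptor and brake on Smo, stood at 81.4 and 112 CPM in Foxp3-DTR C and D, against 179 and 249.96 CPM in WT A and C. The groups did not overlap, and the level was 2.21-fold lower in Foxp3-DTR (log2 fold change -1.15 ± 0.25, edgeR adjusted p = 0.0854). Gli1, the transcription factor whose own RNA is a target of the signal, stood at 139 and 155 CPM in Foxp3-DTR C and D, against 247 and 369 CPM in WT A and C. It was 2.10-fold lower in Foxp3-DTR (log2 fold change -1.07 ± 0.24, edgeR adjusted p = 0.0877). WT C was the highest library for all 3 genes, and for Gli1 it was 1.49-fold above WT A. The summed level of Gli1, Ptch1 and Hhip was 226 and 275 CPM in Foxp3-DTR C and D, against 450.2 and 647 CPM in WT A and C. Each of the 3 genes was lower without overlap, so the separation of the sum was fixed and adds no further support.

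**Figure D2:**
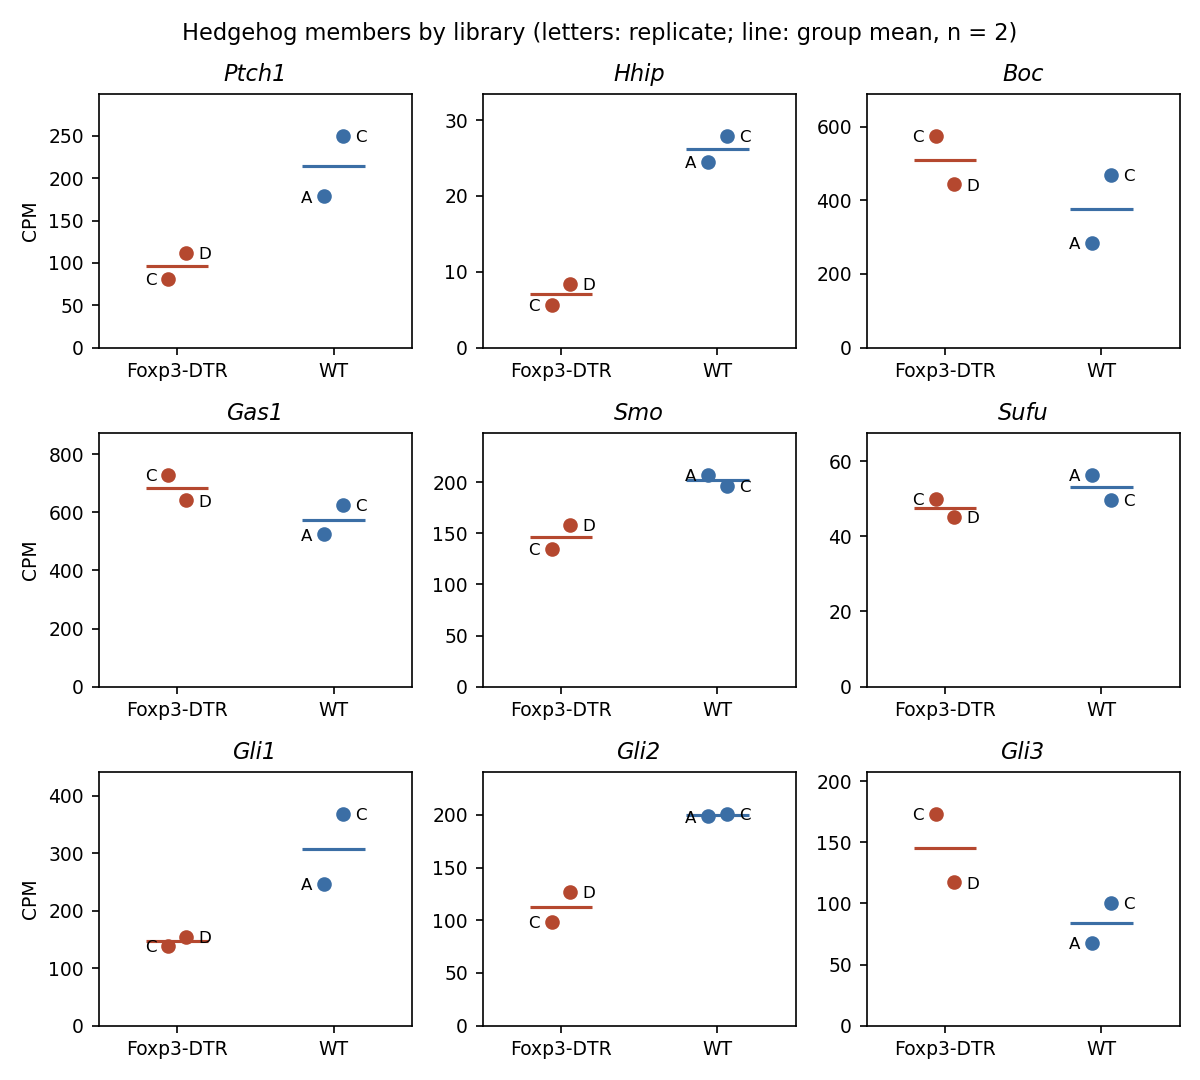
CPM of each of the 9 Hedgehog genes in every library, Foxp3-DTR in red on the left and WT in blue on the right of each panel, with replicate letters beside the points and a line at the mean of each group (n = 2). The groups do not overlap for Ptch1, Hhip, Smo, Gli1 and Gli2, lower in Foxp3-DTR, or for Gas1 and Gli3, higher in Foxp3-DTR, and they overlap for Boc and Sufu.

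The Gli factors did not move as a block. Gli2, the main activator at the start of signalling, stood at 98.6 and 127 CPM in Foxp3-DTR C and D, against 199 and 201 CPM in WT A and C. Its WT libraries were within 1.01-fold of each other, and the log2 fold change was -0.82 ± 0.20 (edgeR adjusted p = 0.0999). Gli3, the main repressor, ran the other way. It stood at 173 and 117 CPM in Foxp3-DTR C and D, against 67.9 and 100.2 CPM in WT A and C, and the log2 fold change was 0.79 ± 0.28 (edgeR adjusted p = 0.251). The closest libraries of the groups, Foxp3-DTR D and WT C, were nearer to each other than the replicates within either group.

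Counts of Gli1 and Gli3 in the same library do not depend on how libraries are scaled to each other. The ratio of Gli1 to Gli3 counts was 0.800 and 1.32 in Foxp3-DTR C and D, against 3.64 and 3.68 in WT A and C. Gli3 made up 42.2% and 29.4% of all Gli reads in Foxp3-DTR C and D, against 13.2% and 15.0% in WT A and C. The share of Gli2 was 24.0% and 31.9% in Foxp3-DTR C and D, against 38.7% and 30.0% in WT A and C, so it overlapped between the groups. The ratio of Ptch1 to Gli1 counts, 0.587 and 0.725 in Foxp3-DTR C and D against 0.723 and 0.678 in WT A and C, overlapped as well. These ratios were chosen after the values were seen and carry no test, since an exact two-sided permutation test of 2 against 2 libraries cannot give a p below 0.333. Gli1 and Gli2 were lower and Gli3 higher in Foxp3-DTR without overlap. The separation of the Gli1 to Gli3 ratio and of the Gli3 share was thereby fixed and adds no further support. Shares are of counts and are not corrected for the longer exons of Gli3.

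**Figure D3:**
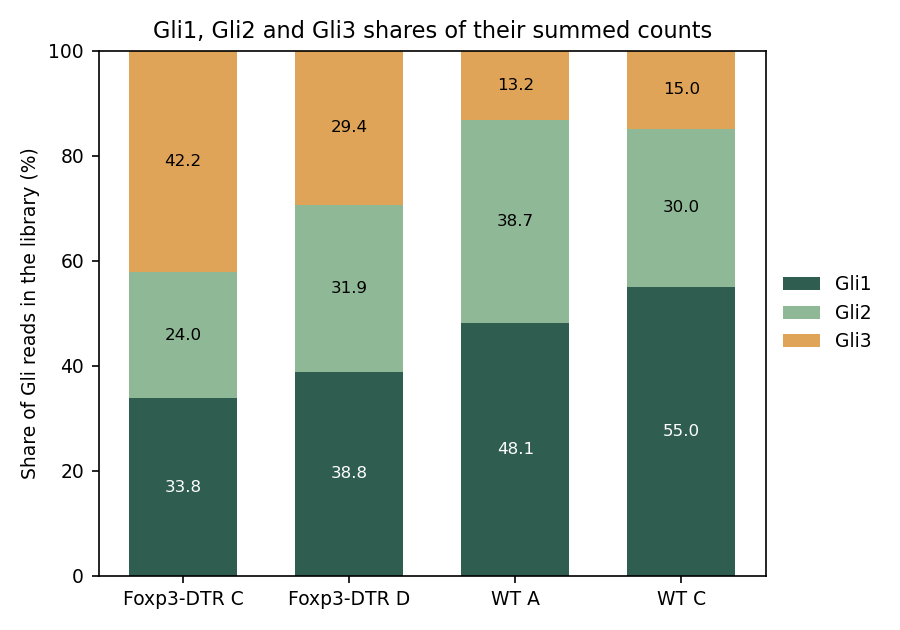
Share of Gli1 (dark green), Gli2 (light green) and Gli3 (orange) in the summed counts of the 3 genes, in percent, 1 bar per library with Foxp3-DTR on the left. Gli3 takes 42.2% and 29.4% in the Foxp3-DTR libraries and 13.2% and 15.0% in the WT libraries.

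The co-receptors and the transducer changed less. Gas1, a membrane-anchored protein that helps ligands reach Ptch1, stood at 729 and 641 CPM in Foxp3-DTR C and D, against 524 and 625 CPM in WT A and C. Its log2 fold change was 0.25 ± 0.20, with a 95% interval from -0.23 to 0.74 and an edgeR adjusted p of 0.657. Boc, an immunoglobulin-family co-receptor, stood at 575 and 443 CPM in Foxp3-DTR C and D, against 285 and 469.6 CPM in WT A and C. WT C lay between the Foxp3-DTR libraries, and the interval of the log2 fold change reached from -0.25 to 1.12 (edgeR adjusted p = 0.584). The ratio of Ptch1 to Boc counts in the same library was 0.142 and 0.253 in Foxp3-DTR C and D, against 0.627 and 0.532 in WT A and C. This ratio too was chosen after the values were seen and carries no test.

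Smo, the transducer, stood at 135 and 158 CPM in Foxp3-DTR C and D, against 207 and 196 CPM in WT A and C. The groups did not overlap, but the log2 fold change, -0.46 ± 0.18, did not pass (edgeR adjusted p = 0.306). Sufu, the cytoplasmic inhibitor that binds Gli proteins, varied least, with 49.9 and 45.1 CPM in Foxp3-DTR C and D, against 56.3 and 49.7 CPM in WT A and C. The groups overlapped, and the 95% interval of the log2 fold change reached from -0.63 to 0.31 (edgeR adjusted p = 0.799).

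Counted together, 0 of the 9 genes passed edgeR's test over all genes in either direction, where 0.820% of tested genes were called higher and 0.426% lower. At an unadjusted p under 0.05, 5 were lower (Hhip, Ptch1, Gli1, Gli2 and Smo) and 1 was higher (Gli3), against 7.89% and 6.76% of all tested genes. The groups did not overlap, with Foxp3-DTR lower, for 5 of the 9, against 23.7% of tested genes, and with Foxp3-DTR higher for 2 of the 9, against 22.0%. The median log2 fold change of the 9 was -0.46, and that of all tested genes -0.01. DESeq2, which called 3.79% of its genes lower and 3.61% higher, called 4 of the 9 lower and 0 higher: Hhip (adjusted p = 9.1e-05), Gli1 (0.00105), Ptch1 (0.00112) and Gli2 (0.0072). Limma-voom, which called 0.542% of tested genes higher and 0.178% lower, called 0 of the 9. Without a filter on low counts, where 1.61% of tested genes were called lower, Hhip, Ptch1 and Gli1 passed. With WT A left out, Gli1 and Ptch1 passed (0.316% of tested genes lower), and with Foxp3-DTR D left out, Hhip passed (1.64% lower). Over all 9 alternatives the adjusted p ranged from 9.1e-05 to 0.197 for Hhip, from 0.00105 to 0.447 for Gli1, from 0.00112 to 0.461 for Ptch1 and from 0.0072 to 0.794 for Gli2.

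**Figure D4:**
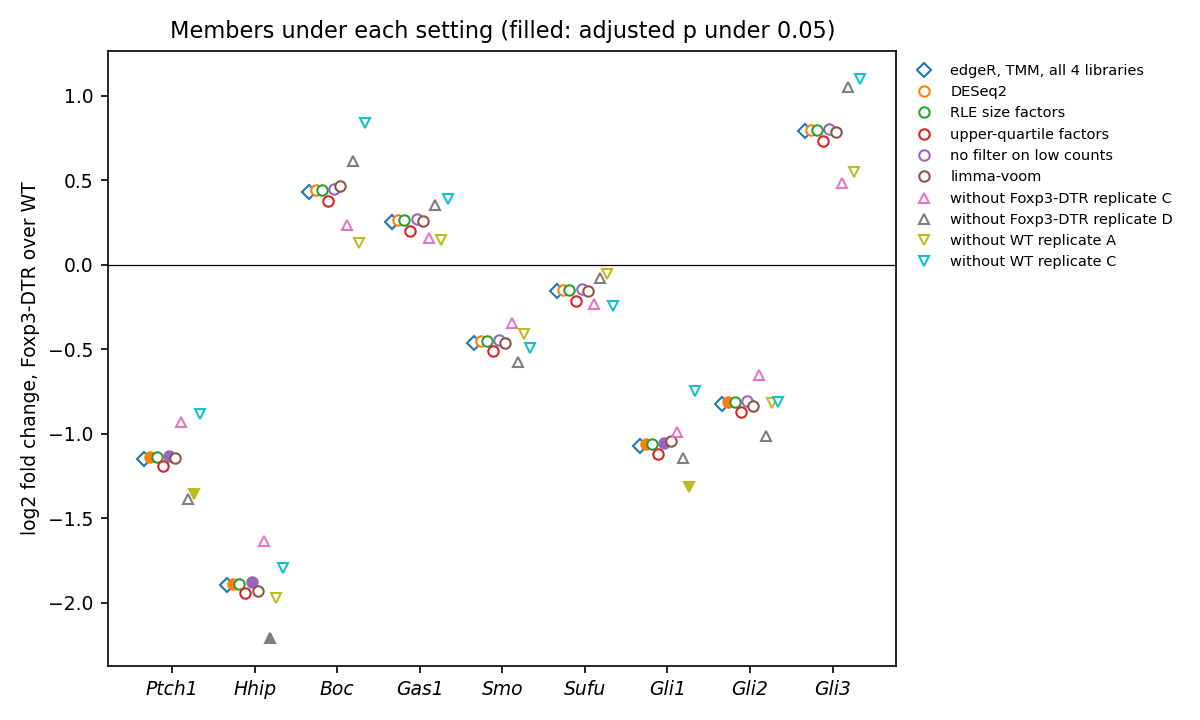
Log2 fold change (Foxp3-DTR over WT) of each Hedgehog gene under edgeR with all 4 libraries (diamond), 5 other methods or scalings (circles) and with each library left out (triangles); filled points have an adjusted p under 0.05. Every point keeps the sign of its gene in edgeR with all libraries, and the filled points belong to Ptch1, Hhip, Gli1 and Gli2.

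Libraries with like levels of suprabasal keratinocyte RNA were also set side by side. Between Foxp3-DTR C and WT C, both low in that RNA, the difference in log2 CPM was -1.41 for Gli1, -1.62 for Ptch1, -2.28 for Hhip, -1.03 for Gli2 and 0.79 for Gli3. Between Foxp3-DTR D and WT A, both high in it, it was -0.68 for Gli1, -0.67 for Ptch1, -1.52 for Hhip, -0.64 for Gli2 and 0.79 for Gli3. The signs for these 5 genes are fixed, since their groups do not overlap. Of the 2 genes whose groups overlap, Boc differed by 0.29 and 0.64 in these comparisons and Sufu by 0.01 and -0.32. These are differences between single libraries and have no test, and the part of suprabasal RNA in the result was not tested.

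Gli1 and Hhip are also expressed by dermal papilla cells and fibroblasts next to the follicle, and markers of those cells were measured. The 15 listed genes other than Hhip summed to 39.1 and 48.6 CPM in Foxp3-DTR C and D, against 67.5 and 86.3 CPM in WT A and C. That sum was lower in Foxp3-DTR, as were Hhip and Gli1, but its genes did not all go the same way. Col1a2, its largest part in each library, stood at 20.3 and 23.0 CPM in Foxp3-DTR C and D, against 23.4 and 35.1 CPM in WT A and C. Dcn, which did not pass the filter on low counts, stood at 1.06 and 0.638 CPM in Foxp3-DTR C and D, against 0.563 and 0.369 CPM in WT A and C. Of the 15 listed genes 6 were tested, 4 with negative and 2 with positive fold changes, and 0 passed in edgeR. At an unadjusted p under 0.05, 3 were lower (Col1a1, Crabp1 and Dpp4) and 0 higher, against 7.89% and 6.76% of all tested genes. The groups did not overlap, with Foxp3-DTR lower, for 4 of the 6, and with Foxp3-DTR higher for 1, against 23.7% and 22.0% of genes. Crabp1 stood at 8.55 and 12.5 CPM in Foxp3-DTR C and D, against 16.3 and 26.8 CPM in WT A and C. Dpp4 stood at 1.13 and 1.84 CPM in Foxp3-DTR C and D, against 9.29 and 5.41 CPM in WT A and C. Col1a1 stood at 3.05 and 5.74 CPM in Foxp3-DTR C and D, against 15.1 and 16.4 CPM in WT A and C, and did not pass (edgeR adjusted p = 0.0982). Pdgfra, a receptor of dermal fibroblasts, ran the other way, with 3.45 and 2.41 CPM in Foxp3-DTR C and D, against 0.915 and 1.60 CPM in WT A and C (edgeR adjusted p = 0.548). The markers Corin, Sox2, Lum, Dpt and Fgf10 had 0 counts in all 4 libraries. The part of such cells in the result was not tested. Sebaceous gland genes summed to 470 and 579 CPM in Foxp3-DTR C and D, against 2073 and 481 CPM in WT A and C, which sets WT A apart. T cell genes summed to at most 0.928 CPM in Foxp3-DTR and 5.56 CPM in WT libraries, and other leukocyte genes to at most 3.98 CPM in Foxp3-DTR and 7.46 CPM in WT libraries. Melanocyte, Schwann and endothelial genes summed to 36.6 and 43.5 CPM in Foxp3-DTR C and D, against 32.0 and 21.1 CPM in WT A and C.

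Among other follicle compartments, the 8 hair germ genes summed to 1218 and 1102 CPM in Foxp3-DTR C and D, against 1384 and 1593 CPM in WT A and C, with 4 positive and 4 negative fold changes. In that list 1 gene passed in edgeR, as lower, where 0.426% of all tested genes were called lower. At an unadjusted p under 0.05, 2 were higher (Lef1 and Runx1) and 2 lower (Sostdc1 and Pthlh), against 6.76% and 7.89% of all tested genes. The groups did not overlap for 3 higher and 3 lower genes, against 22.0% and 23.7% of all tested genes. The gene that passed was Sostdc1, an inhibitor of Wnt and BMP signals. It stood at 70.6 and 143 CPM in Foxp3-DTR C and D, against 657 and 552 CPM in WT A and C. Its log2 fold change was -2.50 ± 0.36 (edgeR adjusted p = 0.0441). Without Sostdc1 the other 7 genes summed to 1148 and 959 CPM in Foxp3-DTR C and D, against 726 and 1041 CPM in WT A and C, so the lower sum rests on that gene. Lef1, a transcription factor of Wnt signalling, stood higher, at 12.2 and 19.8 CPM in Foxp3-DTR C and D, against 4.86 and 6.64 CPM in WT A and C (log2 fold change 1.47 ± 0.41, edgeR adjusted p = 0.145). The upper follicle and isthmus list held 4 genes. They summed to 472 and 376 CPM in Foxp3-DTR C and D, against 554 and 561 CPM in WT A and C. Of the 4, 3 had negative and 1 a positive fold change, and 0 passed in edgeR. Only Gata6 had an unadjusted p under 0.05, as higher, as did 6.76% of all tested genes. Gata6 stood at 14.3 and 8.01 CPM in Foxp3-DTR C and D, against 4.22 and 2.52 CPM in WT A and C.

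Of the 3 ligands, Shh and Ihh had at most 3 counts in any library, and Dhh was detected in all 4. Dhh stood at 2.92 and 0.709 CPM in Foxp3-DTR C and D, against 3.10 and 3.26 CPM in WT A and C (log2 fold change -0.80 ± 0.83, edgeR adjusted p = 0.749). Shh had 0 counts in both Foxp3-DTR libraries, 2 counts in WT A and 0 in WT C, where 0 counts allow a level of up to 0.199 and 0.213 CPM in Foxp3-DTR C and D and up to 0.185 CPM in WT C. Scube2, a secreted protein that helps release lipid-bearing Hedgehog from the cells that make it, was the gene of the ligand and release list with the smallest p. It stood at 178 and 104 CPM in Foxp3-DTR C and D, against 3.31 and 10.1 CPM in WT A and C. The log2 fold change was 4.38 ± 0.63 (edgeR adjusted p = 0.0575), and DESeq2, limma-voom and the fits without WT A or without WT C called it higher. Hhat, which attaches palmitate to the ligands, did not pass (-0.45 ± 0.44 on the log2 scale, edgeR adjusted p = 0.74). Of the 8 genes of this list 4 were tested and 0 passed in edgeR. Only Scube2 was higher at an unadjusted p under 0.05, as were 6.76% of all tested genes. Scube2 was also the only one called in DESeq2 and in limma-voom, which called 3.61% and 0.542% of their genes higher. The median log2 fold change of the 4 was -0.18.

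Of 6 other co-receptors 4 were tested and 0 passed in edgeR, DESeq2 or limma-voom. At an unadjusted p under 0.05, 1 was lower and 0 higher, against 7.89% and 6.76% of all tested genes. The median log2 fold change was 0.02. The glypicans Gpc6 and Gpc4 had log2 fold changes of -0.63 ± 0.18 and -0.10 ± 0.19 (edgeR adjusted p = 0.159 and 0.885). Cdon, the co-receptor related to Boc, stood at 128 and 122 CPM in Foxp3-DTR C and D, against 66.4 and 160 CPM in WT A and C. Its log2 fold change of 0.14 ± 0.41 turned to -0.34 without WT A.

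**Figure D5:**
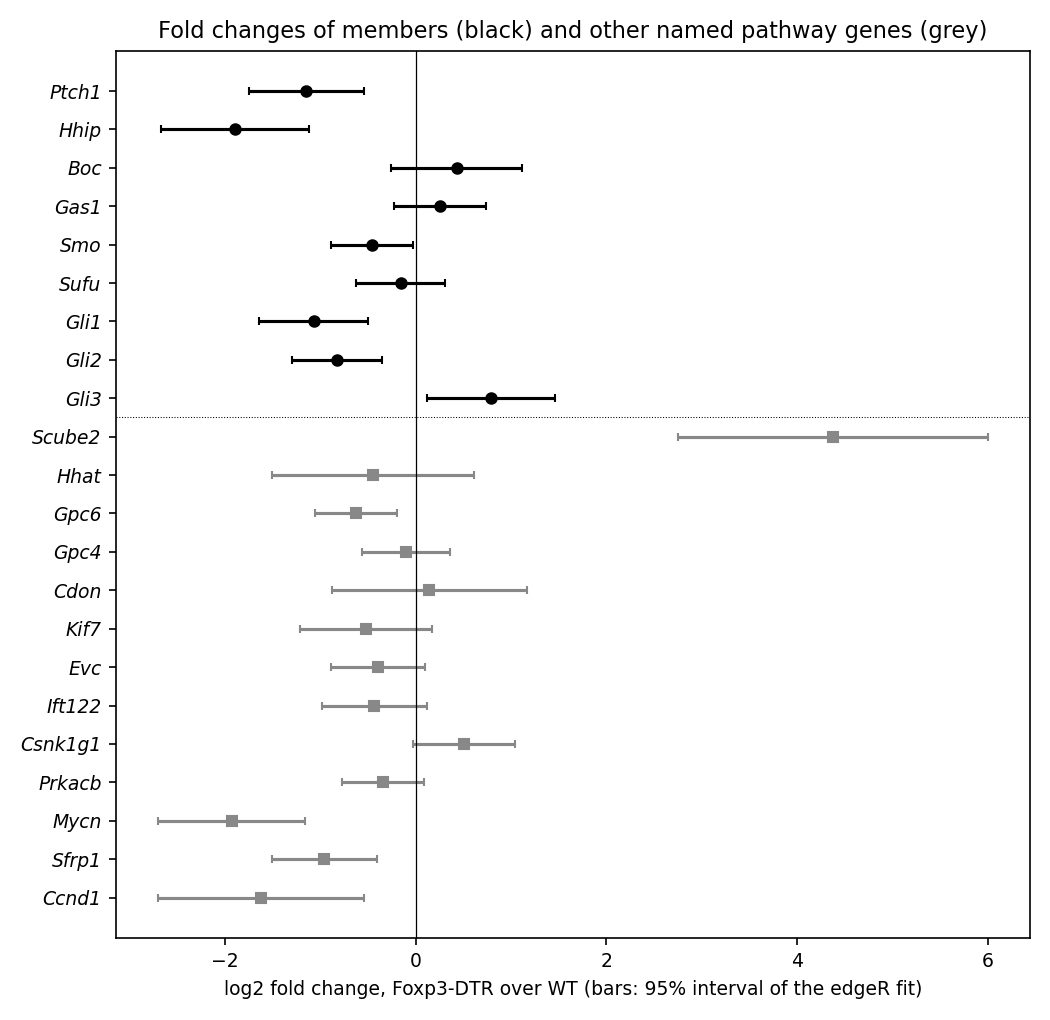
Log2 fold change, Foxp3-DTR over WT, with the 95% interval of the edgeR fit, for the 9 Hedgehog genes (black circles) and 13 other named genes of the pathway (grey squares). None passed edgeR's test with adjustment over all genes; Scube2 at 4.38 lies highest, and Mycn at -1.93 and Hhip at -1.90 lie lowest.

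Smo and Sufu apart, which are given above, other listed machinery between receptor and Gli proteins was measured. Of these other genes 0 passed edgeR's test, 0 had an unadjusted p under 0.05, and 0 passed in DESeq2 or limma-voom. Of 14 cilium and transport genes found, all were tested, and the median log2 fold change was -0.18. Kif7, the cilium motor that orders Gli processing, had -0.52 ± 0.29, Evc, a ciliary partner of Smo, -0.40 ± 0.21, and Ift122, a cilium transport subunit, -0.43 ± 0.23 (edgeR adjusted p = 0.493, 0.465 and 0.472). Of 22 kinases, arrestins and ubiquitin ligases all were tested, with a median of -0.06. Those with the smallest p were the casein kinase Csnk1g1 (0.50 ± 0.22, edgeR adjusted p = 0.378) and Prkacb, a catalytic subunit of protein kinase A (-0.34 ± 0.18, edgeR adjusted p = 0.464).

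Genes reported elsewhere as Hedgehog targets had mostly negative fold changes. Of 17 listed genes 12 were tested and 0 passed in edgeR or limma-voom, 9 had negative and 3 positive fold changes, and the median log2 fold change was -0.92, against 6646 negative and 6274 positive among all tested genes. At an unadjusted p under 0.05, 6 were lower and 0 higher, against 7.89% and 6.76% of all tested genes. The groups did not overlap, with Foxp3-DTR lower, for 8 of the 12, against 23.7% of tested genes. Several genes of this list also act in the cell cycle. Mycn, a growth-promoting transcription factor, stood at 14.8 and 27.4 CPM in Foxp3-DTR C and D, against 86.6 and 74.4 CPM in WT A and C (log2 fold change -1.93 ± 0.32, edgeR adjusted p = 0.0523). The G1 cyclin Ccnd1 stood at 82.4 and 192 CPM in Foxp3-DTR C and D, against 487 and 357 CPM in WT A and C (log2 fold change -1.62 ± 0.43, edgeR adjusted p = 0.157). Sfrp1, a secreted Wnt inhibitor, stood at 1431 and 1916 CPM in Foxp3-DTR C and D, against 3172 and 3341 CPM in WT A and C (log2 fold change -0.96 ± 0.23, edgeR adjusted p = 0.102). In DESeq2, which called 3.79% of its genes lower, 6 of these genes were lower, Mycn, Sfrp1 and Ccnd1 among them.

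The likeness of 2 genes was measured as the root mean square difference of their log2 CPM over the 4 libraries, each centred on its own mean. Among the 9 genes Gli1 lay nearest to Ptch1 (0.12), and Gli3 nearest to Boc (0.18), while Gli3 and Hhip lay farthest apart (1.41). Among 11952 candidates over the whole table, Tbx1, a transcription factor of bulge stem cells, was nearest to Gli1 (0.05). It stood at 179 and 188 CPM in Foxp3-DTR C and D, against 312 and 435 CPM in WT A and C. Ackr3, a scavenging chemokine receptor, and Sorl1, a sorting receptor, came next at 0.05 and 0.07. Nearest to Hhip were Neurl1a (0.03), Phldb1 (0.09) and the DNA repair gene Brca1 (0.11). Neurl1a had low counts, 8 and 12 in Foxp3-DTR C and D, and 39 and 48 in WT A and C. With 4 libraries these are descriptions of shared profiles only.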

How the data were processed

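Hair follicle stem cell RNA was sequenced in 4 libraries made with a stranded mRNA kit, per the labels' protocols. The deposited values are unscaled counts of whole reads for each gene symbol and library. The submitters' processing notes name mm10 as the build and HTSeq 0.6.1, SAMtools 0.1.19.0, Bowtie2 2.1.0.0, TopHat2 2.0.12 and CASAVA 1.8.2 as tools. No source used here gives the annotation or whether the counter used strand, so reads of Gli1 and of Gas1 cannot be told apart from those of the RNAs Gm47200 and Gm48488, annotated on the opposite strand over them. By whole-gene spans, other annotated genes overlapped all of the 9 except Sufu. Among them were Arhgap9 on the opposite strand at Gli1, and Gm6556 (opposite strand) and the pseudogene Gm48343 (same strand) at Gli3. Whether their exons overlap was not examined. The longest identical stretch between transcripts of related genes was 25 bases among the Gli genes and 31 between Boc and Cdon. The 5 special rows of the counter, 62.0% to 70.1% of a library's counts, were left out.

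The comparison of Foxp3-DTR with WT was fitted with edgeR 4.0.16 under R 4.3.3 (TMM factors, filterByExpr, robust glmQLFit, glmQLFTest, group only), with Benjamini-Hochberg adjustment over the 12920 genes tested at a threshold of 0.05. All 9 Hedgehog genes passed the filter; their lowest count was 85, where counting error alone has a coefficient of variation of 10.8%. Standard errors and 95% intervals come from the fold change and the F statistic. Intervals and the floor of 3 counts used where a library had 0 cover counting error or the spread between these libraries only. Whether each library is a different animal is not stated, and the spread behind the p-values may be technical. The alternatives were DESeq2 1.42.0, limma-voom (limma 3.58.1), RLE and upper-quartile factors, no filter on low counts, and each library left out. The procedure was tested on simulated data.

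The 9 genes and all lists were chosen with earlier results of these data known, and no list was given a test. Of the genes the naming rule took, 1 is left out of names and lists and not reported here. Named beside the 9 were Shh, Cdon, Kif7 and Ccnd1. Dhh, Lef1, Runx1, Pthlh, Gata6, Pdgfra, Col1a2, Dcn, Crabp1 and Dpp4 were named too, and were chosen after their values were seen. Also named were the 2 genes with the smallest p of each further Hedgehog list and up to 2 genes of a cell type list. The 3 genes nearest in profile to Gli1, and the 3 nearest to Hhip, the member with the smallest p, were named too. From these nearest genes, predicted genes and those with an average log2 CPM under 0 were left out. Ift25 and Trac were not found under these symbols. Coordinates and exon lengths are from GENCODE M21 (GRCm38), which held 95.7% of the tested symbols once each. Promoter sequences are from RefSeq (GRCm38.p6).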

Additional observations from a re-analysis of the deposited data

How the results depend on the processing

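All 9 Hedgehog genes kept their sign in each of the 9 alternatives. Of these, 0 were called higher in any, and the number called lower, 0 in edgeR with all libraries, was 4 with DESeq2, 3 without a filter on low counts (Hhip, Ptch1 and Gli1), 0 with RLE factors, upper-quartile factors and limma-voom, and 0 to 2 when 1 library was left out (2 without WT A, Gli1 and Ptch1; 1 without Foxp3-DTR D, Hhip). Over all genes, edgeR's 106 higher and 55 lower became 489 and 514 with DESeq2, 277 and 252 without the filter, and 70 and 23 with limma-voom. With 1 library left out they ranged from 66 to 203 higher and from 14 to 220 lower, lowest without Foxp3-DTR C and highest without Foxp3-DTR D. Of the 56 other Hedgehog genes tested, DESeq2 called 1 higher and 6 lower, against 3.61% and 3.79% of all its genes. Limma-voom called 1 higher, against 0.542% of all tested genes. The unfiltered fit, which tested 64 of the other Hedgehog genes, called 1 lower, against 1.61%. The log2 fold change of Cdon ranged from -0.34 (without WT A) to 0.91 (without WT C) with 1 library left out. The cause of these changes was not tested. A library left out leaves 1 library in its group, assumed to vary like the others. The largest median shift of all fold changes under another scaling was -0.05 on the log2 scale. No paired analysis was possible because the groups share only the letter C.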
